A study of Homo sapiens with 10 samples.

Results

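The 35 genes described here belong to the cell's response to amino acid shortage and to misfolded protein in the endoplasmic reticulum (ER), and they include the enzymes of serine synthesis. They were listed by gene symbol, with earlier results of these data known, and no measured value entered the rule. Each gene was represented by the probe set, among those annotated to it alone, with the highest mean log2 signal over all 10 arrays. All 35 had such a probe set, of 19775 genes with one, and all 35 passed the filter on low signal that left 12514 genes for testing. They were split into 21 ATF4 and amino acid genes and 14 ER chaperone and degradation genes.

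The study set 2 human non-small cell lung carcinoma lines side by side, A549 with mutant k-Ras and H1650 with mutant EGFR, and asked which genes change when ID1, a transcriptional regulator without a DNA-binding domain of its own, is knocked down. Each line gave 5 arrays. Cells given ID1 siRNA were stimulated with nicotine or with EGF, and cells given control siRNA were stimulated with nicotine, with EGF or not at all. Nicotine was used at 1 µM and EGF at 100 ng/ml for 18 h, and all cultures had first been deprived of serum for 48 h. A549 was grown in F-12K medium and H1650 in RPMI-1640, so the medium and the line cannot be told apart. Each combination was measured on 1 array, the siRNA sequence is not given in the sources used here, and nothing in the labels says whether the arrays came from separate cultures. The p-values below therefore measure only how alike these arrays were, and no spread between replicates. For ID1 siRNA, the spread is how far the effect differed between nicotine and EGF, pooled over the lines and drawn partly from other genes. For EGF against nicotine it is how far that difference varied between the siRNAs. For the line and for stimulus against none, it is how far the line difference varied between conditions. Technical and biological parts of this spread cannot be told apart.

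ATF4 is a transcription factor whose mRNA is translated when stress kinases phosphorylate the initiation factor eIF2, the kinase GCN2 (EIF2AK4) responding to uncharged tRNA and PERK (EIF2AK3) to misfolded protein in the ER. Its known targets include the regulators ATF3, DDIT3 (CHOP) and TRIB3 and the genes for amino acid synthesis, import and tRNA charging. The ER chaperone and degradation genes are driven mainly by the other branches of the unfolded protein response, in which ERN1 (IRE1) splices the XBP1 mRNA and ATF6 is cut by proteases to release a transcription factor. In lung carcinoma cells the serine pathway of PHGDH, PSAT1, PSPH and SHMT2 is a known target of ATF4 and feeds glycine, one-carbon and glutathione synthesis.

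The sequences of 6 promoters are shown for the DNA elements through which ATF4 and the ER branches are known to act. RefSeq promoter windows on GRCh38.p14, from 250 bases before to 50 bases after an annotated start, were matched for 32 of the 35 genes in 44 windows, and NUPR1, PSPH and SHMT2 had none. The elements searched on both strands were the ER stress response element ERSE (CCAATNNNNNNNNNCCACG), its second form ERSE-II (ATTGG, any base, then CCACG), the unfolded protein response element UPRE (TGACGTGG) and the C/EBP-ATF core (TGATGNAA). For each promoter the 250 bases before the start are printed in the direction of transcription, with the matched letters in capitals. CHAC1 lies at chr15:40953221-40953470 on the plus strand, ATF3 at chr1:212565157-212565406 on the plus strand and ASNS at chr7:97872409-97872658 on the minus strand, and these hold the C/EBP-ATF core. HSPA5 at chr9:125241344-125241593 on the minus strand and CRELD2 at chr22:49918384-49918633 on the plus strand hold ERSE. HERPUD1 at chr16:56931892-56932141 on the plus strand holds both the C/EBP-ATF core and ERSE-II. ATF3 and ASNS have 2 windows each, and only the window printed here holds the core.
CHAC1: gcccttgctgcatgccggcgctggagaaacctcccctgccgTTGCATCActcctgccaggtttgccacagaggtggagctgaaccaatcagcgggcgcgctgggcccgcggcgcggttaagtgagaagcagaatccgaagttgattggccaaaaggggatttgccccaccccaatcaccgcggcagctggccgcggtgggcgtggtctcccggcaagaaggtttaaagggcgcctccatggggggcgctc
ATF3: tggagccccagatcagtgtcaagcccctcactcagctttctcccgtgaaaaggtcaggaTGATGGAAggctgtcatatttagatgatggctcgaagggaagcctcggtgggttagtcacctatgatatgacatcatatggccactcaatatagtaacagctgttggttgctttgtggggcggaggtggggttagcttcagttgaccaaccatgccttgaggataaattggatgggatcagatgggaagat
ASNS: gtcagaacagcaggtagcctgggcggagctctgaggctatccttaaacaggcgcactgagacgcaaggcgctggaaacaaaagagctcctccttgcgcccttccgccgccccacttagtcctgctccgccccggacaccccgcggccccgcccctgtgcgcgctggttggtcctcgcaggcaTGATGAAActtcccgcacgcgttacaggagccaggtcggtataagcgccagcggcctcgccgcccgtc
HSPA5: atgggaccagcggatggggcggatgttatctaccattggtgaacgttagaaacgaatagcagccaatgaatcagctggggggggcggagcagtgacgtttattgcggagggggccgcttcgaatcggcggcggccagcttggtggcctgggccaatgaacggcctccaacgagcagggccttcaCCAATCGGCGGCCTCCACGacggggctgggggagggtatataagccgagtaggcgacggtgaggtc
CRELD2: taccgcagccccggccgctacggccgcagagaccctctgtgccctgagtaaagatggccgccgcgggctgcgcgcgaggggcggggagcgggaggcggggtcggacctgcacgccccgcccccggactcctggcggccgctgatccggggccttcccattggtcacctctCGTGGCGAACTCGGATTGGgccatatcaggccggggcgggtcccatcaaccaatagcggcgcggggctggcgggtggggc
HERPUD1: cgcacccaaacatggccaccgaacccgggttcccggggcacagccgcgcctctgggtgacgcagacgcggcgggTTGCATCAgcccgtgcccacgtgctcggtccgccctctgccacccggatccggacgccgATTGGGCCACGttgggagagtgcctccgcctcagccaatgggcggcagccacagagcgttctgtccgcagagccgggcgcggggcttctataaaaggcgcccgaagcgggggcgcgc

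ERSE was present in 5 of the 14 ER genes (CALR, CRELD2, HSP90B1, HSPA5 and XBP1) and in 0 of the 18 ATF4 and amino acid genes with a window. Counted in the same way, by gene, 0.0916% of all 27305 genes with a window held it, and by window 0.0769% of all 35116 windows. ERSE-II was found in 3 ER genes (HERPUD1, HYOU1 and SDF2L1) and again in 0 of the 18, against 0.0696% of all genes and 0.0541% of all windows. UPRE was present in HYOU1 alone among the members, where it overlaps one of that gene's ERSE-II matches, and in 0.927% of all genes and 0.729% of all windows. The C/EBP-ATF core was present in 6 of the 18 ATF4 and amino acid genes (AARS1, ASNS, ATF3, CEBPG, CHAC1 and SLC3A2) and in 1 ER gene, HERPUD1, against 4.46% of all genes and 3.62% of all windows. In HSPA5 the ERSE ran from position -66 to -48 and in CRELD2 from -80 to -62, counted from the start, and in ASNS the C/EBP-ATF core ran from -68 to -61. A match is a description of the letters, and these windows do not cover elements farther away or downstream.

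**Figure D1:**
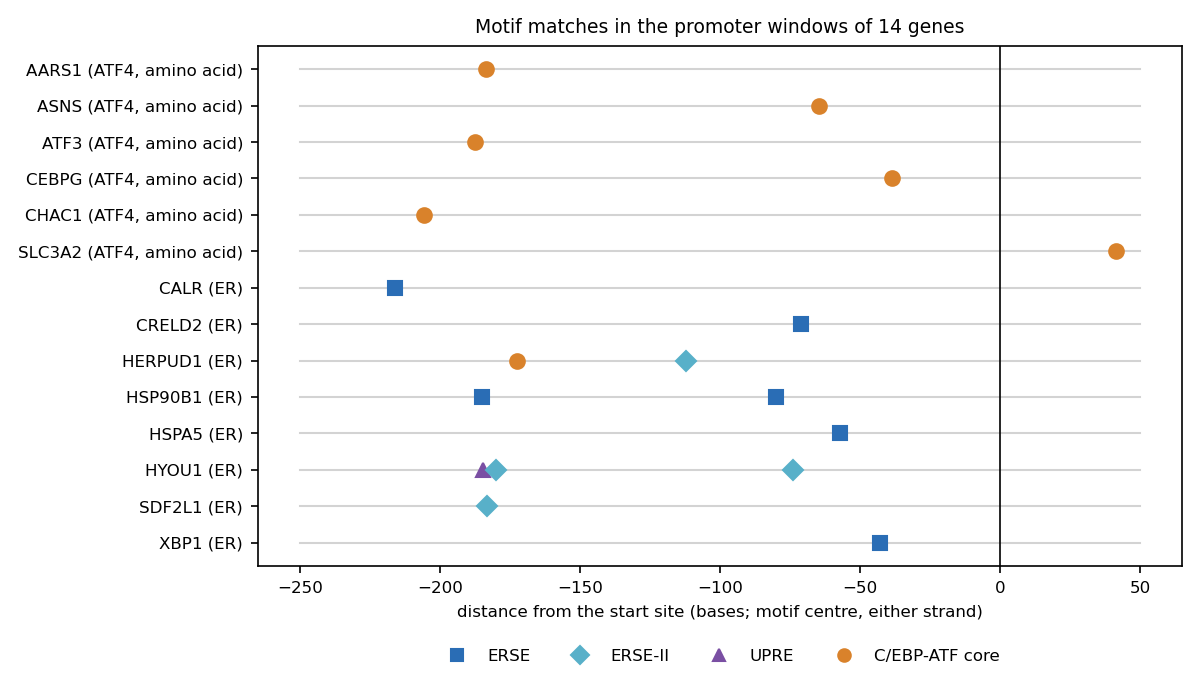
Positions of motif matches in the promoter windows of the 14 members that hold any of the 4 motifs, with the distance from the start site in bases on the x axis and 1 grey line per gene. Squares (ERSE) and light diamonds (ERSE-II) fall only on ER genes among these members, and circles (C/EBP-ATF core) fall on 6 ATF4 and amino acid genes and on HERPUD1.

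The target of the siRNA was checked first. ID1 gave signals of 1343 with nicotine and 1343 with EGF on the ID1 siRNA arrays of A549, against 3720 and 3049 on the matched control arrays and 1645 on the unstimulated control array. In H1650 it gave 881 and 1031 on the ID1 siRNA arrays, against 4964 and 5121 on the matched controls and 5030 without stimulus. ID1 was thus lower by log2 -1.33 ± 0.11 in A549 and -2.40 ± 0.11 in H1650 (limma estimate ± SE, 2 pairs per line), and the unstimulated A549 control already had an ID1 signal close to that of the siRNA arrays. Signals are linear intensities that the authors scaled to a trimmed mean of 500 on each array. The median signal was between 61.2 and 79.6, with the A549 EGF control array standing apart by the lowest median (61.2) and the highest top signal (56869, against 30639 to 46205 on the others). The 3'/5' ratio of GAPDH was 0.887 to 0.945 and that of ACTB 1.23 to 1.52. Of the 5 epithelial markers, KRT8 and KRT18 read 15254 or more on every array, and the other 3 were lower in A549. EPCAM read 734 to 1520.3 in A549 against 12201 to 14054 in H1650, CDH1 1122 to 2210.4 against 16807 to 19318, and KRT19 3542 to 6809.9 against 20183 to 21495. PTPRC, a blood cell marker, read at most 37.6. The endothelial markers PECAM1 and CDH5 read at most 267 and 247. PECAM1 in A549 read 267 and 251 with ID1 siRNA, against 165 and 157 on the matched controls and 203 without stimulus, and CDH5 in H1650 read 247 and 148, against 79.1 and 9.88 on the matched controls and 70.6 without stimulus. PECAM1 overlapped in H1650, at 153 and 172 with ID1 siRNA against 228 and 157 on the matched controls and 162 without stimulus. CDH5 in A549 read 15.1 and 51.9 with ID1 siRNA, against 4.97 and 11.2 on the matched controls and 44.9 without stimulus, all below the signal filter of 66.7. Of the fibroblast markers, COL3A1 read at most 92.0 and LUM at most 51.6, while COL1A1 was higher with ID1 siRNA in each matched pair. In A549 the unstimulated control was higher still. COL1A1 read 664 and 659 on the ID1 siRNA arrays of A549, against 403 and 223 on the matched controls and 853 without stimulus, and in H1650 998 and 590.2, against 534 and 501 on the matched controls and 551 without stimulus. The part of these markers in the results was not tested.

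In A549, ID1 siRNA raised 11 of the 21 ATF4 and amino acid genes and lowered 1, whereas among the 14 ER genes 0 rose and 2 fell. The background for this comparison was 25.3% of all 12514 genes called, 13.8% higher and 11.4% lower, at an adjusted p under 0.05 (limma with Benjamini-Hochberg adjustment over all tested genes, as for each adjusted p below). The median log2 fold change was 0.41 for the ATF4 and amino acid genes and -0.16 for the ER genes, beside 0.05 for all tested genes. The arrays measured RNA from whole cultures, so more responding cells and more RNA per cell cannot be told apart. Centring each array on its median moved the median of all genes to -0.23, with 10 members higher and 12 lower, a median of 0.12 for the ATF4 and amino acid genes, and 10 of the 14 ER genes called lower. The share of all genes called under that centring was not counted, so these counts have no background and follow a shift of all genes.

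Stress regulators made up 7 of the 11 risers. NUPR1, a small stress-induced chromatin protein, gave 773 with nicotine and 587 with EGF on the ID1 siRNA arrays of A549, against 194 and 152 on the matched controls and 724 without stimulus. Both siRNA arrays lay above both stimulated controls, and the unstimulated control lay between the 2 siRNA arrays. The log2 fold change was 1.97 ± 0.19 (adjusted p = 0.000244), the highest of the 35 in this comparison.

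ATF3, a stress-induced repressor and activator of the same family as ATF4, gave 608 and 837 with ID1 siRNA, against 259.7 and 238 on the matched controls and 454 without stimulus. TRIB3, a pseudokinase that is induced by ATF4 and DDIT3, gave 9384 and 13024 with ID1 siRNA, against 4664 and 5219 on the matched controls and 6177 without stimulus. CHAC1, which degrades glutathione, gave 672 and 726 with ID1 siRNA, against 292.5 and 372 on the matched controls and 425 without stimulus. In all 3 genes the ID1 siRNA arrays stood above every A549 control array. Their log2 fold changes were 1.52 ± 0.16 (adjusted p = 0.000362) for ATF3, 1.16 ± 0.14 (adjusted p = 0.000891) for TRIB3 and 1.08 ± 0.18 (adjusted p = 0.00314) for CHAC1. The 2 further ATF3 probe sets above the filter gave 0.81 and 0.52, and with the mean of all probe sets ATF3 was no longer called (0.95, adjusted p = 0.0777).

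PPP1R15A (GADD34), which brings phosphatase to eIF2 and so ends the block on translation, gave 664 and 1017 with ID1 siRNA, against 407 and 503 on the matched controls and 521 without stimulus. DDIT3, the CHOP transcription factor, gave 562 and 809 with ID1 siRNA, against 381 and 312 on the matched controls and 458 without stimulus. SESN2, a leucine sensor that restrains mTORC1, gave 493 and 645 with ID1 siRNA, against 301 and 317 on the matched controls and 641 without stimulus. The siRNA arrays stood above all controls for PPP1R15A and DDIT3, and for SESN2 only above the stimulated ones. The fold changes were 0.86 ± 0.13 for PPP1R15A (adjusted p = 0.00258), 0.97 ± 0.22 for DDIT3 (adjusted p = 0.0140) and 0.87 ± 0.17 for SESN2 (adjusted p = 0.00691). Without the A549 EGF pair, DDIT3 stood at 0.56 (adjusted p = 0.182) and SESN2 at 0.71 (adjusted p = 0.0669), and neither was called.

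ATF4 mRNA itself did not pass the test, at -0.12 ± 0.15 (adjusted p = 0.593). It gave 12932 and 12682 with ID1 siRNA, against 12722 and 15247 on the matched controls and 13952 without stimulus. The groups overlapped, and the arrays measured the mRNA and not the protein. CEBPB and CEBPG, leucine zipper factors that pair with ATF4 on the C/EBP-ATF core, also did not pass, at 0.15 ± 0.14 and 0.11 ± 0.10. A second CEBPG probe set above the signal filter gave 0.44, and CEBPB was called higher under quantile normalization (0.42).

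In the serine pathway of A549, 2 of 5 enzymes rose. PHGDH, which takes the first step from a glycolytic intermediate towards serine, gave 1348 and 1349.7 with ID1 siRNA, against 830.5 and 785 on the matched controls and 1247 without stimulus. Both siRNA arrays were above every control, the stimulated controls being the low ones, and the log2 fold change was 0.74 ± 0.10 (adjusted p = 0.00164). PSPH, the last enzyme of serine synthesis, gave 3662 and 3404 with ID1 siRNA, against 2888 and 2445 on the matched controls and 3893 without stimulus. Its change was 0.41 ± 0.10 (adjusted p = 0.0170), and it was not called without the A549 EGF pair (0.34, adjusted p = 0.147), under array-median centring (0.12) or with the mean of its probe sets (0.14), one of which gave -0.68. PSAT1, which takes the middle step, SHMT2, which turns serine into glycine in mitochondria, and MTHFD2, which oxidises the one-carbon unit so released, stood at 0.08 ± 0.11, -0.02 ± 0.12 and 0.29 ± 0.13 and did not pass. Their other probe sets were not alike: another of PSAT1 gave 0.90 and another of SHMT2 gave 0.82, and the means over probe sets of PSAT1 (0.49), SHMT2 (0.38) and MTHFD2 (0.58) were called higher.

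Of the amino acid transport and charging genes, SLC7A5 fell. SLC7A5, the light chain of the large neutral amino acid exchanger, gave 10393 and 12150 with ID1 siRNA, against 15039 and 23736 on the matched controls and 11885 without stimulus. The siRNA arrays lay below both stimulated controls and on either side of the unstimulated one, with a log2 fold change of -0.75 ± 0.14 (adjusted p = 0.00517). Without an intensity trend in the variance the same value just missed the threshold (adjusted p = 0.0501). Over the 12 alternative settings the SLC7A5 value ran from -1.04 to -0.40. Its highest signal, 23736, came from the A549 EGF control, the array that stands apart. SLC3A2, the heavy chain of the same exchanger, stood at -0.04 ± 0.10, ASNS, which makes asparagine, at 0.24 ± 0.15, and AARS1, which charges the alanine tRNA, at 0.04 ± 0.12, and these 3 did not pass.

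VLDLR and STC2 had the smallest adjusted p-values among the 35. VLDLR, a lipoprotein receptor whose gene is known to respond to ATF4, gave 1320.4 and 1186 with ID1 siRNA, against 320.2 and 353 on the matched controls and 920.05 without stimulus. STC2, a secreted glycoprotein induced by ER stress, gave 1251 and 1342 with ID1 siRNA, against 397 and 418 on the matched controls and 958 without stimulus. In both genes the siRNA arrays stood above all controls, and the unstimulated control stood well above the stimulated ones. The fold changes were 1.90 ± 0.14 (adjusted p = 5.68e-05) for VLDLR and 1.67 ± 0.12 (adjusted p = 5.29e-05) for STC2, and both were called under each of the 12 alternative settings run for this comparison.

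**Figure D2:**
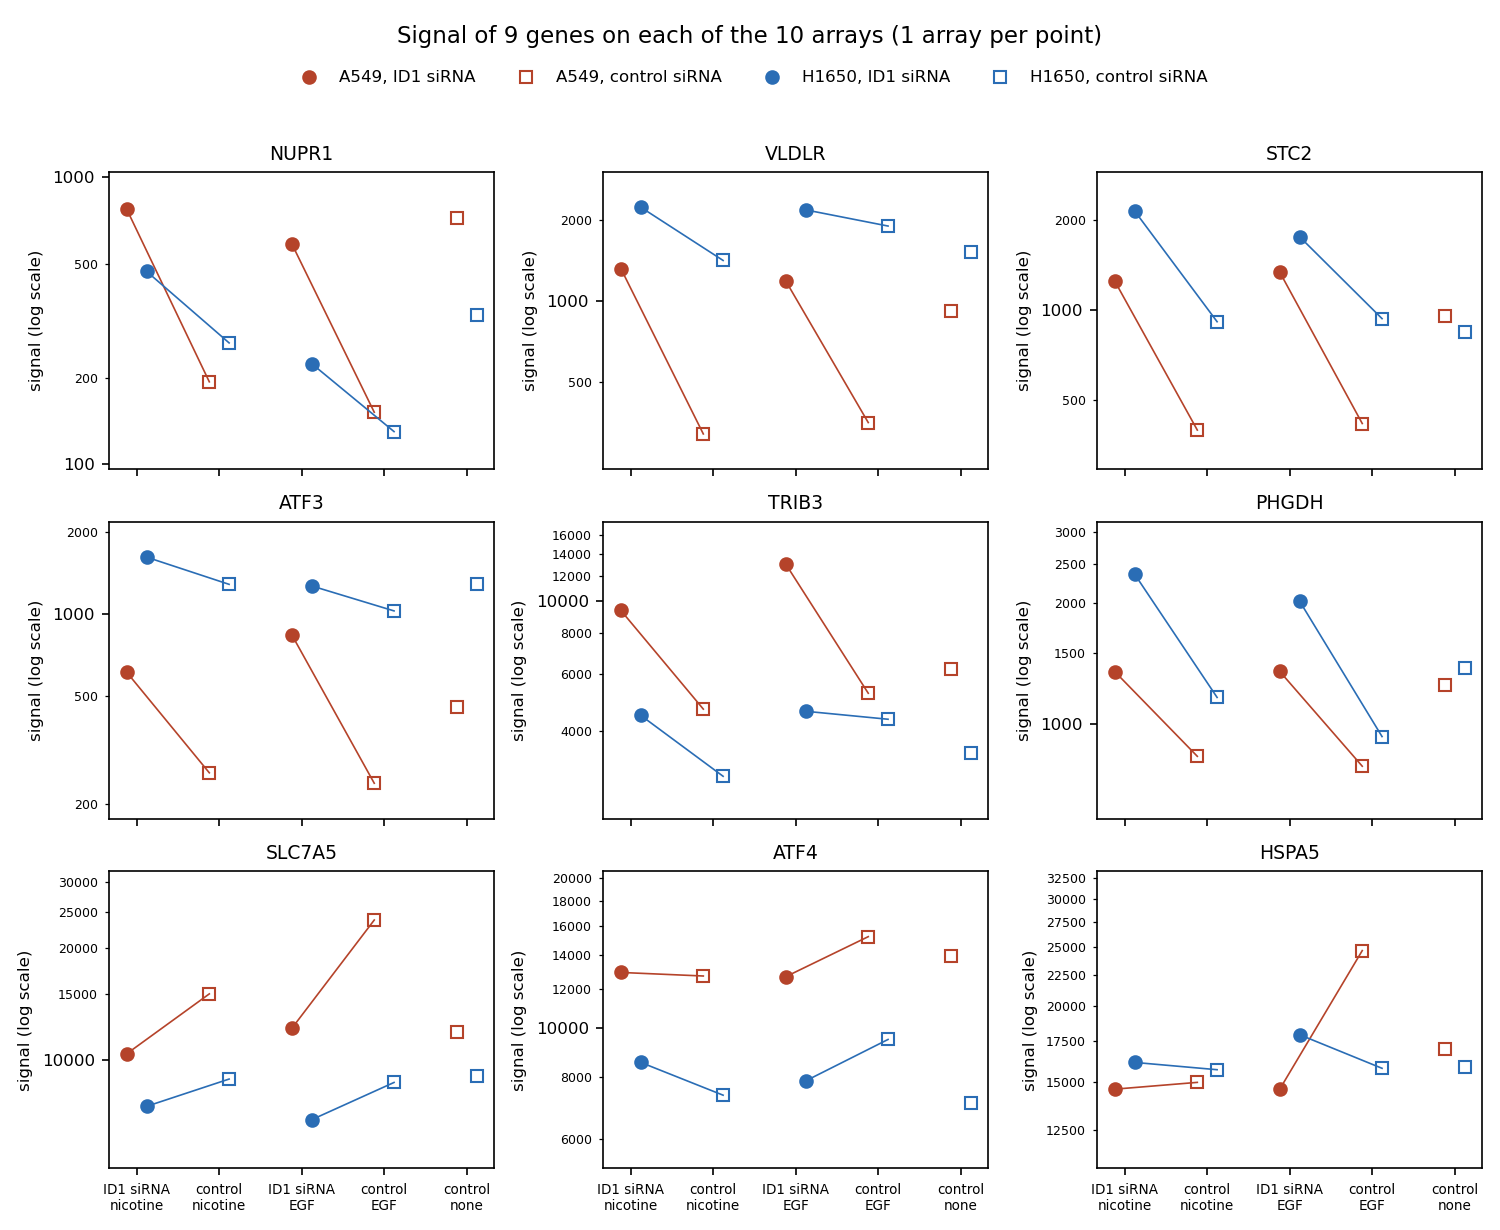
Signals of 9 genes on each of the 10 arrays, 1 point per array, on a log scale, with the matched siRNA pairs of each line joined by a line. NUPR1, VLDLR, STC2, ATF3, TRIB3 and PHGDH are higher with ID1 siRNA in both A549 pairs, SLC7A5 is lower, and for HSPA5 the A549 EGF control at 24663 is the one array that stands apart.

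Among the ER chaperone and degradation genes of A549, the 2 that fell were CRELD2 and SEL1L. CRELD2, an ER protein induced by ER stress, gave 1162 and 1041.5 with ID1 siRNA, against 1406 and 1391 on the matched controls and 1799 without stimulus. SEL1L, the adaptor of the HRD1 ubiquitin ligase in ER-associated degradation, gave 2411 and 2216 with ID1 siRNA, against 3213 and 2646 on the matched controls and 3071 without stimulus. Both genes were below every control, at -0.35 ± 0.10 (adjusted p = 0.0339) for CRELD2 and -0.34 ± 0.10 (adjusted p = 0.0354) for SEL1L. Neither call was stable. CRELD2 missed the threshold without the A549 nicotine pair (-0.42, adjusted p = 0.0728) and without the A549 EGF pair (-0.27, adjusted p = 0.282), and so did SEL1L (-0.26, adjusted p = 0.254, and -0.41, adjusted p = 0.0950). The other SEL1L probe sets were not alike: those above the signal filter gave -1.02 and 0.39, and one below it gave -0.96.

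HSPA5 (BiP), the main ER chaperone of the Hsp70 family, gave 14585 and 14587 with ID1 siRNA, against 14965 and 24663 on the matched controls and 16954 without stimulus. Its change of -0.40 ± 0.18 did not pass (adjusted p = 0.139), and the EGF pair alone differed by -0.76 where the nicotine pair differed by -0.04. Without the A549 nicotine pair, which leaves the estimate to the EGF pair, HSPA5 (-0.76) and HSP90B1 (-0.50) were called lower and CALR (0.49) higher. Of the other ER genes, XBP1 (-0.28 ± 0.12), HSP90B1 (-0.30 ± 0.13), SDF2L1 (-0.42 ± 0.15), MANF (-0.20 ± 0.14), DNAJC3 (-0.11 ± 0.11), PDIA4 (-0.12 ± 0.12) and EDEM1 (-0.04 ± 0.11) had negative estimates that did not pass. DNAJB9 (0.26 ± 0.10), CALR (0.26 ± 0.12), HYOU1 (0.22 ± 0.13) and HERPUD1 (0.12 ± 0.10) had positive ones that did not pass. For DNAJB9 the siRNA arrays lay above every A549 control, and its other probe sets gave 0.50 and 0.47. It was called higher under quantile normalization (0.34), where SDF2L1 was called lower (-0.53), and with the mean of its probe sets (0.41).

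The calls in A549 were set beside the promoter elements. Of the 6 ATF4 and amino acid genes with a C/EBP-ATF core in the window, 2 rose (ATF3 and CHAC1) and 0 fell, and of the 12 with a window and no core, 7 rose and 1 fell. Of the 8 ER genes with ERSE or ERSE-II, 0 rose and 1 fell (CRELD2), and of the 6 without, 0 rose and 1 fell (SEL1L). These are counts, with no test.

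In H1650, where ID1 fell further, ID1 siRNA raised 3 of the 21 ATF4 and amino acid genes and 1 of the 14 ER genes, and lowered 0 of either group. The background was 12.3% of all genes called, 5.64% higher and 6.66% lower, so the share of members called (4 of 35, 11.4%) was close to it. The median log2 fold change was 0.12 for the ATF4 and amino acid genes and 0.08 for the ER genes, beside -0.01 for all genes. Quantile normalization called 6 members higher and 2 lower, and array-median centring 4 higher and 1 lower.

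PHGDH gave 2355 with nicotine and 2019 with EGF on the ID1 siRNA arrays of H1650, against 1163 and 929.9 on the matched controls and 1376.5 without stimulus. STC2 gave 2151 and 1764 with ID1 siRNA, against 916 and 938 on the matched controls and 848 without stimulus. In both, the siRNA arrays lay above all 3 controls with no overlap, and each had a log2 fold change of 1.07, with SE 0.10 for PHGDH (adjusted p = 0.00133) and 0.12 for STC2 (adjusted p = 0.00188). NUPR1 gave 470.1 and 224 with ID1 siRNA, against 265 and 129.9 on the matched controls and 331 without stimulus. It was higher in each pair but its groups overlapped, since both EGF arrays were low, and the change was 0.81 ± 0.19 (adjusted p = 0.0283). NUPR1 missed the threshold without the H1650 nicotine pair (0.79, adjusted p = 0.131) or the H1650 EGF pair (0.83, adjusted p = 0.0573).

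EDEM1, a lectin that hands misfolded glycoproteins to degradation, was the ER gene called in H1650. It gave 1945 and 2810 with ID1 siRNA, against 1563 and 1846 on the matched controls and 1521 without stimulus. Its change was 0.46 ± 0.11 (adjusted p = 0.0280), and without the H1650 EGF pair it was 0.32 (adjusted p = 0.255). XBP1 (-0.42 ± 0.12, adjusted p = 0.0522) and HSP90B1 (0.42 ± 0.13, adjusted p = 0.0655) lay just outside the threshold. XBP1, the transcription factor of the IRE1 branch, gave 1687.5 and 1719.7 with ID1 siRNA, against 2077 and 2502 on the matched controls and 2123 without stimulus. HSP90B1, the ER member of the Hsp90 family, gave 7689 and 7425 with ID1 siRNA, against 5735 and 5589.9 on the matched controls and 5669 without stimulus. Neither gene's groups overlapped. XBP1 was called lower under both scaling alternatives. It was -0.54 without the H1650 nicotine pair and was not called without the H1650 EGF pair. Leaving out an A549 pair kept the estimate at -0.42, since those arrays do not enter it.

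Of the 7 regulators that rose in A549, NUPR1 also rose in H1650, as given above, and the other 6 did not pass there: ATF3 0.32 ± 0.16, TRIB3 0.35 ± 0.14, SESN2 0.32 ± 0.17, PPP1R15A 0.22 ± 0.13, CHAC1 0.12 ± 0.18 and DDIT3 -0.13 ± 0.22. VLDLR stood at 0.43 ± 0.14 (adjusted p = 0.0834) and gave 2233 and 2182 with ID1 siRNA, against 1415 and 1899.6 on the matched controls and 1516 without stimulus. SLC7A5 gave 7508.5 and 6910.4 with ID1 siRNA, against 8885 and 8701 on the matched controls and 9049.8 without stimulus, a change of -0.29 ± 0.14 that did not pass. Without the H1650 EGF pair, TRIB3 (0.62) and VLDLR (0.66) were called higher. ATF4 stood at -0.03 ± 0.15 and gave 8550.4 and 7850.1 with ID1 siRNA, against 7352 and 9500.5 on the matched controls and 7089 without stimulus.

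Across the lines, 3 genes were called higher with ID1 siRNA in both (NUPR1, PHGDH and STC2) and 8 in A549 and not in H1650. Called lower in A549 and not called in H1650 were 3 (SLC7A5, CRELD2 and SEL1L). EDEM1 was called higher in H1650 and not in A549, and 20 were called in neither line. Of all genes, 25.3% were called in A549 and 12.3% in H1650. Their overlap was not counted, so the overlap of the members has no background. A call in 1 line does not show that the lines differ, so the difference between the 2 effects was tested directly. It was called for 8 members, against a background of 11.9% of all genes (6.98% with the effect higher in A549 and 4.92% lower). The effect was higher in A549 for VLDLR (1.47 ± 0.20), ATF3 (1.20 ± 0.22), NUPR1 (1.17 ± 0.27), CHAC1 (0.96 ± 0.25), TRIB3 (0.81 ± 0.20) and PSPH (0.54 ± 0.14), all from the ATF4 and amino acid group. It was lower in A549 for HSP90B1 (-0.72 ± 0.18) and CRELD2 (-0.64 ± 0.14), both ER genes. CRELD2 gave 2723 and 2618 with ID1 siRNA in H1650, against 2267 and 2099 on the matched controls, the opposite order to A549.

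Under array-median centring the split of the difference was 3 higher and 7 lower, as the median of all genes moved to -0.17 under it, against 0.07. Without the A549 EGF pair 2 members were called, VLDLR and ATF3, and the other values were TRIB3 0.66 (adjusted p = 0.0933), CHAC1 1.08 (adjusted p = 0.0563), NUPR1 1.19 (adjusted p = 0.0559), PSPH 0.47 (adjusted p = 0.129), HSP90B1 -0.52 (adjusted p = 0.0791) and CRELD2 -0.57 (adjusted p = 0.0891). Without the A549 nicotine pair CHAC1 (0.85) and NUPR1 (1.14) were not called, without the H1650 nicotine pair HSP90B1 (-0.71) was not, and without the H1650 EGF pair TRIB3 (0.54), CHAC1 (0.77), PSPH (0.48) and HSP90B1 (-0.73) were not. A second HSP90B1 probe set gave 0.55 in A549 and 0.48 in H1650. Over the alternatives the PSPH difference ran from 0.04 to 0.61. PHGDH, the member with the lowest p in H1650, had a difference of -0.33 ± 0.15 (adjusted p = 0.187), and STC2 one of 0.60 ± 0.17 (adjusted p = 0.0586).

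**Figure D3:**
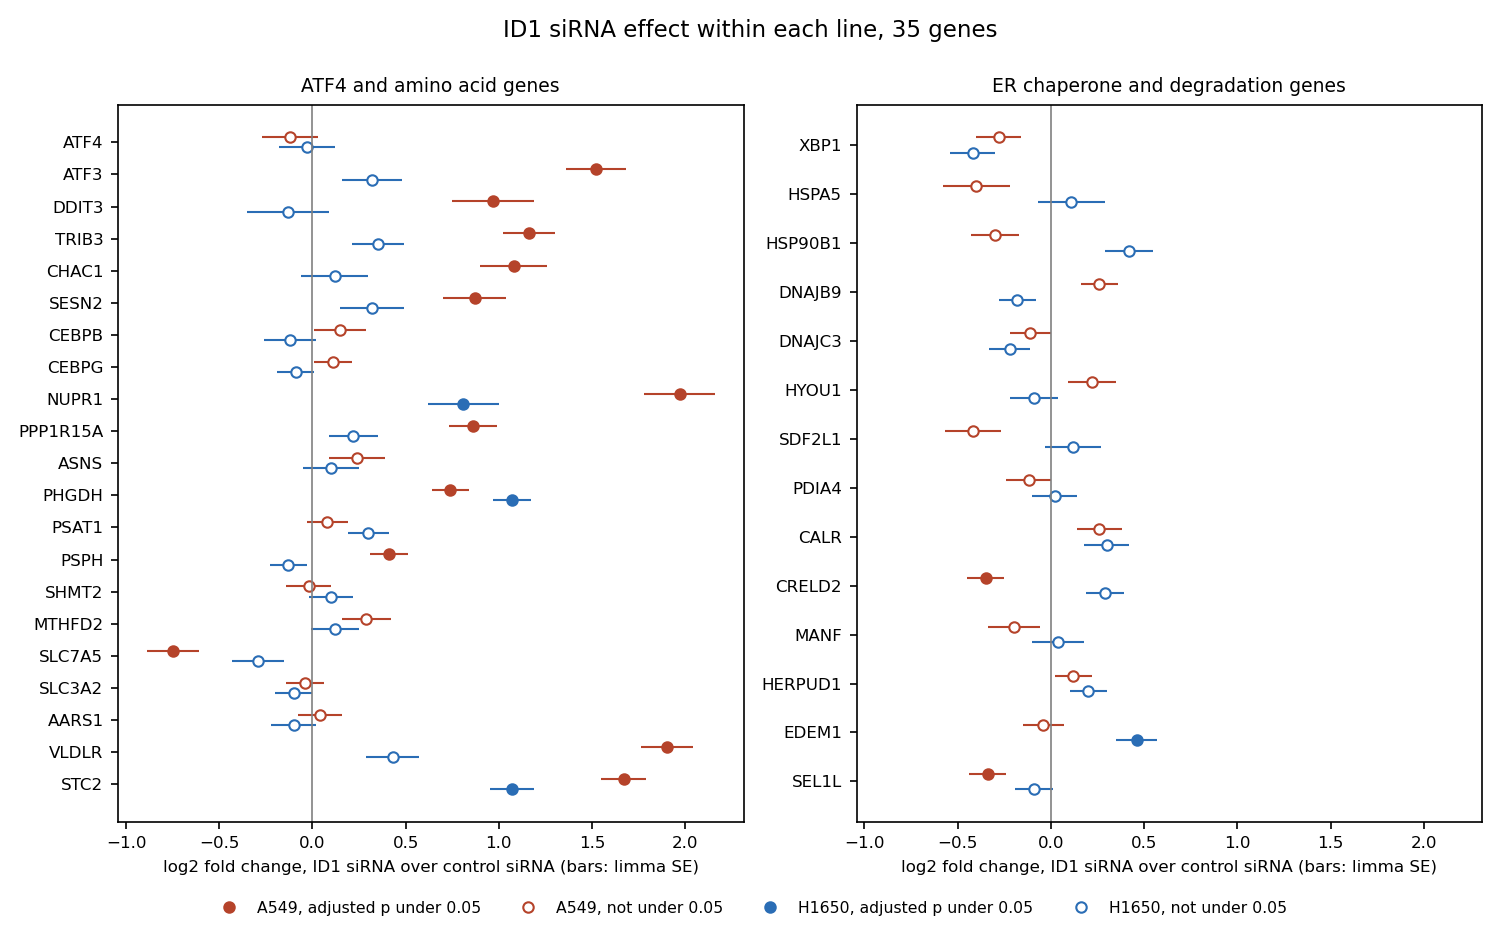
log2 fold change of ID1 siRNA over control siRNA for the 35 genes, A549 above H1650 within each gene, with bars for the limma SE and filled points for an adjusted p under 0.05. Filled A549 points lie to the right for 11 ATF4 and amino acid genes and to the left for SLC7A5, CRELD2 and SEL1L, and filled H1650 points are NUPR1, PHGDH, STC2 and EDEM1.

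The unstimulated control of A549 did not resemble the stimulated controls in several of these genes. Its comparison with the stimulated controls and the siRNA comparison share the stimulated control arrays, so the values are only set side by side. For NUPR1 in A549, the log2 difference from the unstimulated control was 0.10 for ID1 siRNA with nicotine and -0.30 for ID1 siRNA with EGF, against -1.90 for the nicotine control and -2.25 for the EGF control. For TRIB3 in A549 it was 0.60 and 1.08 for the siRNA arrays, against -0.41 and -0.24 for the stimulated controls. Over the 21 ATF4 and amino acid genes in A549, the median was 0.10 and 0.11 for the siRNA arrays with nicotine and EGF, against -0.40 and -0.19 for the matched controls. In H1650 it was 0.11 and 0.15 for the siRNA arrays, against -0.09 and 0.07 for the matched controls. ID1 itself was lower in unstimulated A549 than in its stimulated controls and not in H1650, as given above. With 1 unstimulated array per line, these differences have no replicate check.

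No member passed the test for a stimulus averaged over both lines. For nicotine over no stimulus, 0 members and 0.00% of all genes were called by limma. At an unadjusted p under 0.05 there were 2 members, NUPR1 (-1.11 ± 0.40) and SESN2 (-0.61 ± 0.26), beside 1.51% of all genes. For EGF over no stimulus, again 0 members and 0.00% of all genes were called, with 3 members at an unadjusted p under 0.05, NUPR1 (-1.80 ± 0.40), PHGDH (-0.62 ± 0.18) and PSPH (-0.43 ± 0.18), beside 5.97% of all genes. Both comparisons use the same unstimulated arrays.

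EGF and nicotine were compared within each line and siRNA. In A549, 0 members were called, beside 0.0320% of all genes (0.0240% higher with EGF and 0.00799% lower), and at an unadjusted p under 0.05 there were 4 (PPP1R15A 0.46 ± 0.13, SLC7A5 0.44 ± 0.14, SHMT2 0.29 ± 0.12 and XBP1 -0.38 ± 0.12), beside 9.57% of all genes. Without the A549 ID1 siRNA pair, SLC7A5 (0.66) and HSPA5 (0.72) were called higher, which leaves that estimate to the control pair with the EGF array that stands apart. In H1650, 0 members were called, beside 0.216% of all genes (0.0719% higher with EGF and 0.144% lower), and 5 had an unadjusted p under 0.05, beside 10.7% of all genes. They were PPP1R15A (0.49 ± 0.13), EDEM1 (0.39 ± 0.11), SHMT2 (0.28 ± 0.12), PHGDH (-0.27 ± 0.10) and NUPR1 (-1.05 ± 0.19). NUPR1 in H1650 gave 224 and 129.9 with EGF, against 470.1 and 265 with nicotine, so its EGF arrays lay below both nicotine arrays (adjusted p = 0.0758), and it was called lower under array-median centring (-0.99) and without the A549 control siRNA pair (-1.05). The same difference in A549 was -0.37 ± 0.19.

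The 2 lines differed in most members over the 5 matched conditions, with 14 higher in A549 and 10 lower, but the background for this comparison was 63.1% of all genes called (30.9% higher and 32.2% lower). The ATF4 and amino acid genes divided into 7 higher and 6 lower (median -0.07) and the ER genes into 7 higher and 4 lower (median 0.33), beside a median of -0.03 for all genes. Every A549 array lay above every H1650 array for 13 members and below for 6, beside 24.7% and 25.3% of all genes. Array-median centring gave 18 higher and 8 lower and moved the median of all genes to 0.12. Line and medium differ together here, and 1 culture medium per line was used.

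ATF4 was higher in A549 by 0.75 ± 0.09 (adjusted p = 0.000164), and no A549 array overlapped an H1650 array. Among the enzymes and transporters, SHMT2 (1.02 ± 0.10), PSAT1 (0.89 ± 0.10), SLC3A2 (0.85 ± 0.08), ASNS (0.84 ± 0.11) and SLC7A5 (0.78 ± 0.15) were higher in A549, while PHGDH (-0.45 ± 0.12) and PSPH (-0.42 ± 0.12) were lower, so the serine pathway was split between the lines. PSAT1 gave 12913, 14354, 11832, 14002 and 14371 in A549 (ID1 siRNA with nicotine and EGF, control with nicotine, EGF and no stimulus), against 8098, 8179, 6417, 6853 and 6823 in H1650. The A549 arrays were all above those of H1650. ASNS was the one call that turned round, to -0.21 with the mean of its probe sets, the second of which lay below the signal filter. PHGDH was not called under array-median centring, and PSPH neither there nor without the A549 nicotine control (-0.37, adjusted p = 0.0505).

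Of the regulators, TRIB3 was higher in A549 (0.88 ± 0.16) and ATF3 (-1.59 ± 0.23) and PPP1R15A (-0.63 ± 0.13) were lower. CEBPG stood at -0.13 ± 0.09 and did not pass, but its second probe set gave 1.18 and the mean of its probe sets was called higher (0.52). The highest ATF3 signal in A549 was 837, and all H1650 arrays lay above it, at 1615 and 1266 with ID1 siRNA, 1283 and 1024 on the matched controls and 1291 without stimulus. VLDLR (-1.39 ± 0.27) and STC2 (-0.67 ± 0.20) were lower in A549 as well. The STC2 call rested on the stimulated controls: it was -0.54 without the nicotine control of either line and -0.55 without the EGF control of either line, and was not called there. Leaving out 1 line's array takes that condition out of the line difference, so leaving out the other line's array is the same check.

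Among the ER genes, the Hsp40 co-chaperones DNAJB9 (1.28 ± 0.11) and DNAJC3 (0.79 ± 0.09), the disulfide isomerase PDIA4 (0.87 ± 0.08), XBP1 (0.72 ± 0.12), HSP90B1 (0.66 ± 0.14), HERPUD1 (0.65 ± 0.12), a membrane component of ER-associated degradation, and SEL1L (0.33 ± 0.09) were higher in A549. DNAJB9 gave 4320.1, 4121.5, 3538, 3529 and 3949 in A549, against 1427, 1600.4, 1732, 1695 and 1540.5 in H1650 in the same order of conditions, with no overlap. CRELD2 (-0.86 ± 0.14), EDEM1 (-0.64 ± 0.12), the lectin chaperone CALR (-0.58 ± 0.09) and the Hsp70-related HYOU1 (-0.49 ± 0.11) were lower in A549. HSPA5 stood at 0.05 ± 0.14 and did not pass, and quantile normalization called it lower (-0.23). SEL1L was not called without the nicotine control of either line, which is the same check (0.28). With the mean of its probe sets SEL1L was not called either, and HERPUD1 not with that mean (0.18).

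**Figure D4:**
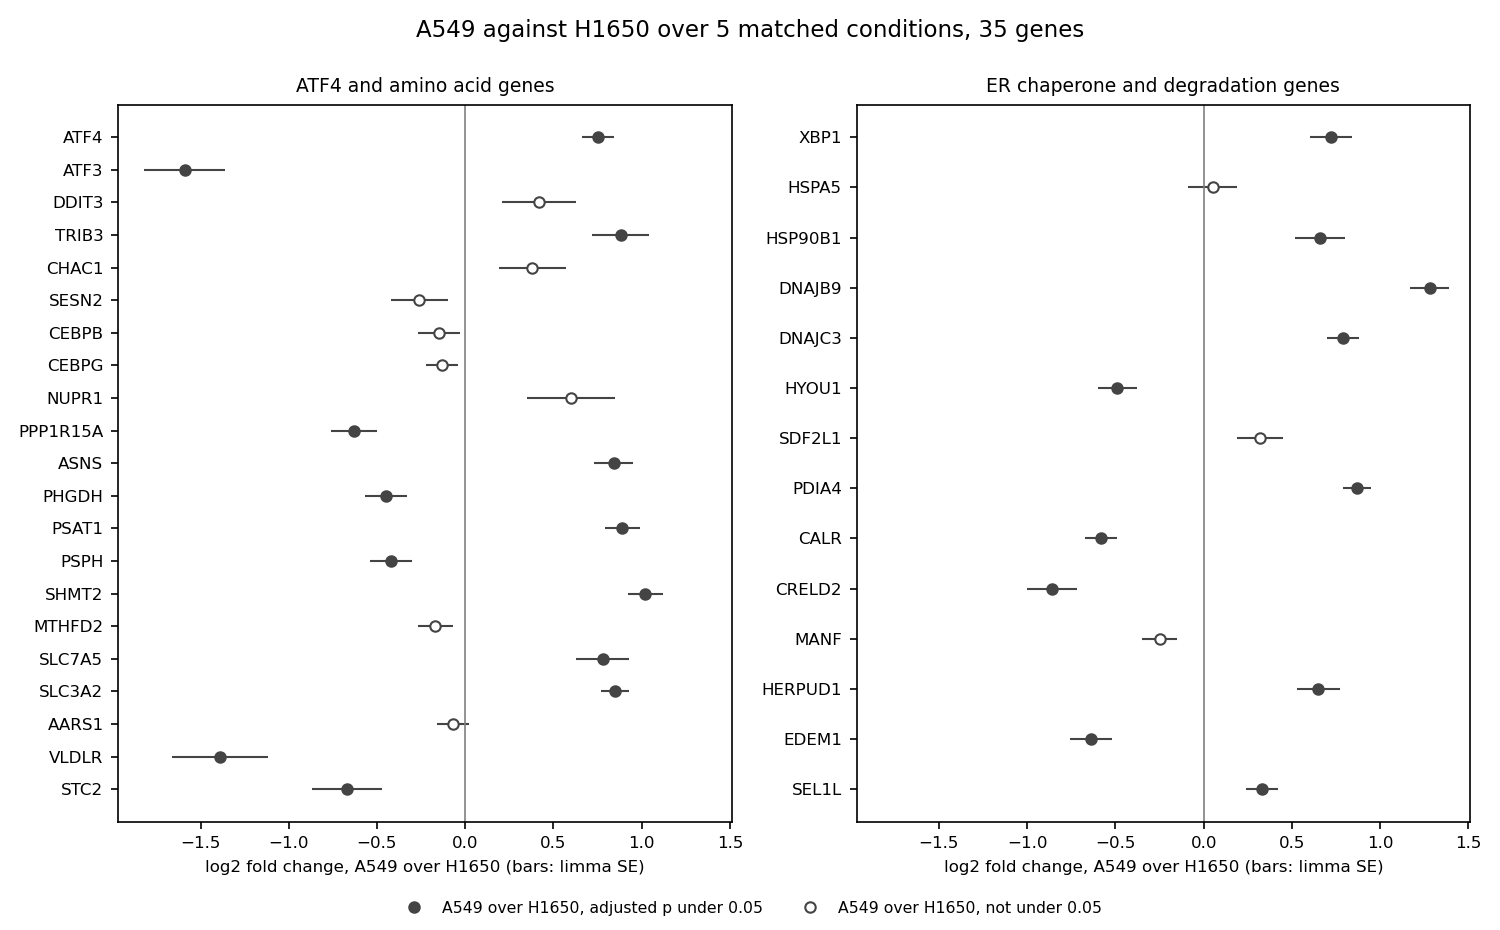
log2 fold change of A549 over H1650 for the 35 genes over 5 matched conditions, with bars for the limma SE and filled points for an adjusted p under 0.05. Filled points lie on both sides of 0 in each group, from ATF3 at -1.59 to DNAJB9 at 1.28.

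A wider list of 83 genes of the same pathways was read alongside the members, of which 73 were tested. In A549, ID1 siRNA raised 8 and lowered 13 of them (median -0.13, beside 0.05 for all genes), and the 28.8% called was near the 25.3% of all genes. The largest rises were in ALDH1L2 (1.03 ± 0.32), a mitochondrial folate enzyme, and in the eIF2 kinases EIF2AK2 (PKR; 0.93 ± 0.11) and EIF2AK4 (GCN2; 0.67 ± 0.13), and the largest falls in CREB3L2 (-0.67 ± 0.10), GOT1 (-0.67 ± 0.14) and VCP (-0.60 ± 0.13). In H1650 it raised 4 and lowered 9 (median -0.07, beside -0.01), 17.8% called beside 12.3% of all genes (5.64% higher and 6.66% lower). ATF6, the ER sensor that is released as a transcription factor, gave 431 and 468 with ID1 siRNA, against 209.9 and 223.5 on the matched controls and 229.9 without stimulus. ERN1, the sensor that splices XBP1, gave 206 and 211 with ID1 siRNA, against 415 and 502 on the matched controls and 422 without stimulus. The 2 sensors moved in opposite directions in H1650, with ATF6 at 1.05 ± 0.14 (adjusted p = 0.00312) and ERN1 at -1.13 ± 0.14 (adjusted p = 0.00241), and neither gene's groups overlapped.

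The other genes named by size in H1650 were FKBP14 (0.91 ± 0.10), a prolyl isomerase of the ER, and the neutral amino acid transporter SLC1A5 (0.54 ± 0.10), which were higher, and KDELR3 (-1.04 ± 0.10), a receptor that returns ER proteins from the Golgi, and the thiol oxidase ERO1A (-0.79 ± 0.13), which were lower. The siRNA effect differed between the lines for 7 of the 73 genes, 9.59% beside 11.9% of all genes, being higher in A549 for 4, led by ERN1 (1.37 ± 0.19), EIF2AK2 (1.32 ± 0.16) and EIF2AK4 (0.88 ± 0.18), and lower for 3, ATF6 (-1.18 ± 0.20), MTHFD1 (-0.91 ± 0.15) and SSR3 (-0.60 ± 0.15). Between the lines, 32 were higher in A549 and 20 lower (median 0.23, beside -0.03), 71.2% called beside 63.1% of all genes (30.9% higher and 32.2% lower). The largest of these were ERO1B (3.13 ± 0.25), the cystine transporter SLC7A11 (2.97 ± 0.13) and ERN1 (1.88 ± 0.28), higher in A549, and ERO1A (-2.41 ± 0.17), TXNDC11 (-1.35 ± 0.20) and GOT1 (-1.23 ± 0.15), lower. ERO1A and ERO1B encode the alternative forms of the same ER oxidase, and they differed between the lines in opposite directions. For EGF against nicotine within either line and for either stimulus against none, 0 of the 73 were called.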

How the data were processed

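Each of the 10 arrays (Affymetrix U133 Plus 2.0) holds 1 RNA sample. The deposited intensity values are linear MAS5 signals made with GCOS 1.4, per the submitters' processing notes, and the authors scaled each array to a 2% trimmed mean of 500, as the values show. Here the signals were taken to log2. Of 54675 probe sets, 41091 were annotated to 1 gene, and each of the 19775 genes kept its brightest probe set. Genes with a mean log2 signal under 6.06 (the 50th percentile of all probe sets, signal 66.7) were left out, which left 12514.

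limma 3.58.1 in R 4.3.3, with an intensity trend, tested all of them with Benjamini-Hochberg adjustment, and an adjusted p under 0.05 was a call. The ID1 siRNA effects used 8 stimulated arrays with the 4 matched pairs as blocks (2 residual degrees of freedom). EGF against nicotine used the same arrays blocked by line and siRNA. Line and stimulus against none used 10 arrays with line and condition as terms (4 residual degrees of freedom). The number of arrays limits the precision. The fit was tested on simulated data.

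Alternatives were quantile normalization, array-median centring, log2(signal + 16), no filter or a 60th percentile filter, a gene's probe sets averaged, a variance prior without the intensity trend, no block, and leaving out each pair or array. All 35 members may be named, and of other pathway genes at most the 3 called with the largest change in each direction. The members and lists were chosen with earlier results of these data known.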

Additional observations from a re-analysis of the deposited data

Results flagged for a closer look

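For 8 of the 35 genes the effect of ID1 siRNA differed between the lines by the test of the difference itself (limma, A549 effect minus H1650 effect, 2 pairs per line, adjusted over all tested genes), beside 11.9% of all genes called. The count was 2 without the A549 EGF pair (VLDLR and ATF3) and 0 without an intensity trend in the variance. The effect was higher in A549 for VLDLR (1.47, adjusted p = 0.00275), ATF3 (1.20, adjusted p = 0.0115), NUPR1 (1.17, adjusted p = 0.0277), CHAC1 (0.96, adjusted p = 0.0405), TRIB3 (0.81, adjusted p = 0.0366) and PSPH (0.54, adjusted p = 0.0392). It was lower in A549 for HSP90B1 (-0.72, adjusted p = 0.0347) and CRELD2 (-0.64, adjusted p = 0.0222). In VLDLR, ATF3, NUPR1, CHAC1 and TRIB3 both lines had a positive estimate. In PSPH, HSP90B1 and CRELD2 the 2 lines had estimates of opposite sign with the probe set used. The other PSPH probe sets gave 0.68 in A549 and 0.07 in H1650, and -0.68 and 0.35. A second HSP90B1 probe set gave 0.55 and 0.48, and HSP90B1 was called in neither line. Over the alternatives the PSPH difference ran from 0.04 to 0.61.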

How the results depend on the processing

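With 1 array per line and condition, the spread came from how alike the pairs were, and leaving out a pair left its line with 1 pair, whose spread was taken from the other line. For ID1 siRNA in A549, 14 members were called, against 22 under array-median centring, 9 without an intensity trend and 9 to 15 when a pair was left out. In H1650 4 were called, against 8 under quantile normalization, 0 without an intensity trend, 2 without the block of matched pairs and 4 to 6 when a pair was left out. The difference between the effects was called for 8, against 4 with no filter, 3 with the mean of all probe sets, 0 without an intensity trend and 2 to 10 when a pair was left out. Between the lines 24 were called, and 22 to 26 when an array was left out, with no alternative moving the count by over 1.5 times. ASNS turned round in that comparison, to -0.21 with the mean of all probe sets, 1 of which lay below the filter. For EGF against nicotine the count of 0 in A549 was 0 to 2 when a pair was left out, and the count of 0 in H1650 was 1 under array-median centring and 0 to 1 when a pair was left out. For either stimulus against none it was 0 in each alternative run. For the alternatives the share of all genes called was not counted, so their member counts have no background. The cause of these changes was not tested. No paired analysis by replicate number was possible because the labels carry none.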
